A study of Mus musculus with 168 samples.

Results

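Mir764, Mir1912, Mir1264, Mir1298 and Mir448 are microRNA genes that lie inside introns of Htr2c, the X-linked gene of the serotonin 2C receptor. They were chosen by position alone, as the transcripts of the hippocampus table that map to these 5 genes in GENCODE M21 (GRCm38), and are called the Htr2c microRNAs here. They are 5 of the 1626 transcripts of the table, and they held 0.0569% of all counts. The hippocampus short RNA came from C57BL/6 mice. They were heterozygous for a knock-in of an expanded CAG repeat into Huntingtin (Htt), with the alleles Q175, Q140, Q111, Q92, Q80 and the unexpanded Q20, or were wild type (WT). Mice were 2, 6 or 10 months old (2m, 6m, 10m). There were 8 libraries in each of the 21 groups of genotype and age, and each library came from 1 animal per the study's methods. Every knock-in animal kept 1 mouse Htt copy, the Q175 allele arose by a spontaneous expansion in the Q140 line, and WT animals were littermates from the Q20 line alone. Groups held 4 females and 4 males, except Q80 at 2m (3 females and 5 males) and Q20 at 10m (5 females and 3 males).

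Htr2c is a G protein-coupled receptor for serotonin. Its RNA is very abundant in the choroid plexus, the vascularised epithelium of the brain ventricles that secretes cerebrospinal fluid, and it is also made by some neurons. The choroid plexus lies along the hippocampus in the lateral ventricle and can be carried over when the tissue is removed. A microRNA within an intron can be made from its host's transcript. It is cut out as a hairpin and then trimmed to a short mature strand, whose seed (bases 2 to 8) pairs with target messages. Little is established about the targets of this group. In mouse cells, Mir448 has been linked to the differentiation of adipocytes and Mir764 to that of osteoblasts. The working name of the group is that of choroid plexus microRNAs. Bulk libraries hold no cell types to test it on directly, so it was set against microRNA markers of that tissue.

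All 5 hairpins lie on the plus strand of the X chromosome (GRCm38), and none overlaps an exon of Htr2c, which runs from 146962513 to 147197277. In the Htr2c transcript with 7 exons (Htr2c-202), intron 3 holds Mir764 (chrX:147002259-147002366, ENSMUST00000103259), Mir1912 (chrX:147009441-147009527, ENSMUST00000175298), Mir1264 (chrX:147010601-147010686, ENSMUST00000175381) and Mir1298 (chrX:147064905-147065002, ENSMUST00000116681). Mir448 (chrX:147158210-147158321, ENSMUST00000083516) lies in intron 5. Neighbours in this order are 7074, 1073, 54218 and 93207 nucleotides apart. Of the 7 annotated Htr2c transcripts, 6 span the first 4 hairpins and 4 span Mir448.

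The mature strands are shown because counts were given per hairpin, so that these are the sequences the short reads could come from. RefSeq (GRCm38.p6) held 8 mature strands for the 5 genes, and the seed is in capitals, 5′ to 3′.
mmu-miR-764-5p: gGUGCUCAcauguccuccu
mmu-miR-764-3p: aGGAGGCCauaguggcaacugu
mmu-miR-1912-3p: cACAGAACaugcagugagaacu
mmu-miR-1264-3p: cAAAUCUUauuugagcaccugu
mmu-miR-1298-5p: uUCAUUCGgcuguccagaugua
mmu-miR-1298-3p: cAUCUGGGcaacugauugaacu
mmu-miR-448-5p: gAACAUCCugcauagugcugcc
mmu-miR-448-3p: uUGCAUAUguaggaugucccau
The 8 seeds were all different, so no pair of the group forms a seed family. Among the other mature microRNAs of the RefSeq table, only mmu-miR-7062-5p carried one of these seeds, that of mmu-miR-764-3p. The deposited table gives 1 value per hairpin, and the arms were not told apart.

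Levels are given in CPM, counts scaled to a common library total with TMM factors. A library held between 2117539 and 9099227 estimated counts, with a median of 3374648. Mir1298 had the most counts of the group, with 121 CPM in the lowest library, a median of 212 CPM and 4771 CPM in the highest. Mir448 followed with 14.8, 26.3 and 693 CPM, and Mir764 with 12.5, 22.7 and 54.7 CPM. Mir1264 ran from 6.27 to 104 CPM around a median of 13.1 CPM. Mir1912 was the rarest, at 0 to 59.3 CPM with a median of 1.73 CPM. It had a median of 6 counts per library and reached 10 counts in 49 libraries, so its low values carry a large counting error. It was listed at 0 in 3 libraries of 2m animals, Q111 F3 and F4 and Q175 F3, where letter and number name the sex and replicate. All 5 passed the low-count filter, as did 470 of the 1626 transcripts. The lowest and highest counts were 34 and 234 for Mir764, 13 and 342 for Mir1264, 316 and 15766 for Mir1298, and 34 and 2359 for Mir448. The levels of different microRNAs also carry the capture bias of each sequence, so the order of the 5 may not be that of their molecules.

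The spread between libraries set the members apart from each other. The highest library lay 46.9-fold above the lowest for Mir448, 39.3-fold for Mir1298 and 16.5-fold for Mir1264, against 4.39-fold for Mir764. After group, sex and batch were fitted, the residual SD of log2(CPM + 1) was 1.16 for Mir1912, 1.03 for Mir448, 1.02 for Mir1298, 0.64 for Mir1264 and 0.34 for Mir764. Most libraries lay close together and a few lay far above them. The largest step in the sorted Mir1298 levels was between 667 and 979 CPM, with 148 libraries below it and 20 above it. This step was 0.55 of the 5.28 log2 units between the lowest and the highest library, so the levels thinned out rather than falling into clearly separate sets. The largest step of Mir448, between 95.1 and 146 CPM, had the same 20 libraries above it. In bulk tissue, fewer cells of a type and less RNA per cell cannot be told apart, and this holds for every difference given here.

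The 20 libraries above the step came from all 7 genotypes and all 3 ages. By genotype they were 2 of 24 libraries in Q175, 1 in Q140, 5 in Q111, 1 in Q92, 1 in Q80, 6 in Q20 and 4 in WT. By age they were 7 of 56 libraries at 2m, 5 at 6m and 8 at 10m, and 12 of the 84 libraries from females and 8 of the 84 from males. Within an age the sexes did not keep this order. At 6m they were 1 of 28 libraries from females and 4 of 28 from males, and at 10m 7 of 29 from females and 1 of 27 from males. In 9 of the 21 groups no library lay above the step. These were Q175, Q140 and Q80 at 2m, Q175, Q92 and WT at 6m, and Q140, Q92 and Q80 at 10m. By batch, the share above the step was 0 of 6, 4 of 30 and 3 of 20 libraries for the codes L2, L3 and L4 at 2m. At 6m it was 0 of 16 in the library block of WT and Q175 and 5 of 40 in the block of the other genotypes. At 10m it was 2 of 16, 3 of 30 and 3 of 10 for L6, L7 and L8. Whether batch had a part in these levels was not tested.

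The highest libraries were high in the whole group. Library M3 of Q111 at 6m had 4771 CPM of Mir1298, 507 of Mir448, 104 of Mir1264, 59.3 of Mir1912 and 45.4 of Mir764. Library F2 of Q20 at 2m had 3765, 693, 75.8, 41.4 and 42.0 CPM in the same order. Library F2 of WT at 10m had 3387, 381, 75.8, 47.6 and 54.7 CPM. Q111, Q20 and WT thus each gave 1 of the 3 highest libraries of Mir1298. Of the 10 highest libraries of Mir1298, 9 were also among the 10 highest of Mir448. The 4 microRNAs other than Mir764 shared 7 of their 10 highest libraries, and all 5 shared 5.

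**Figure D1:**
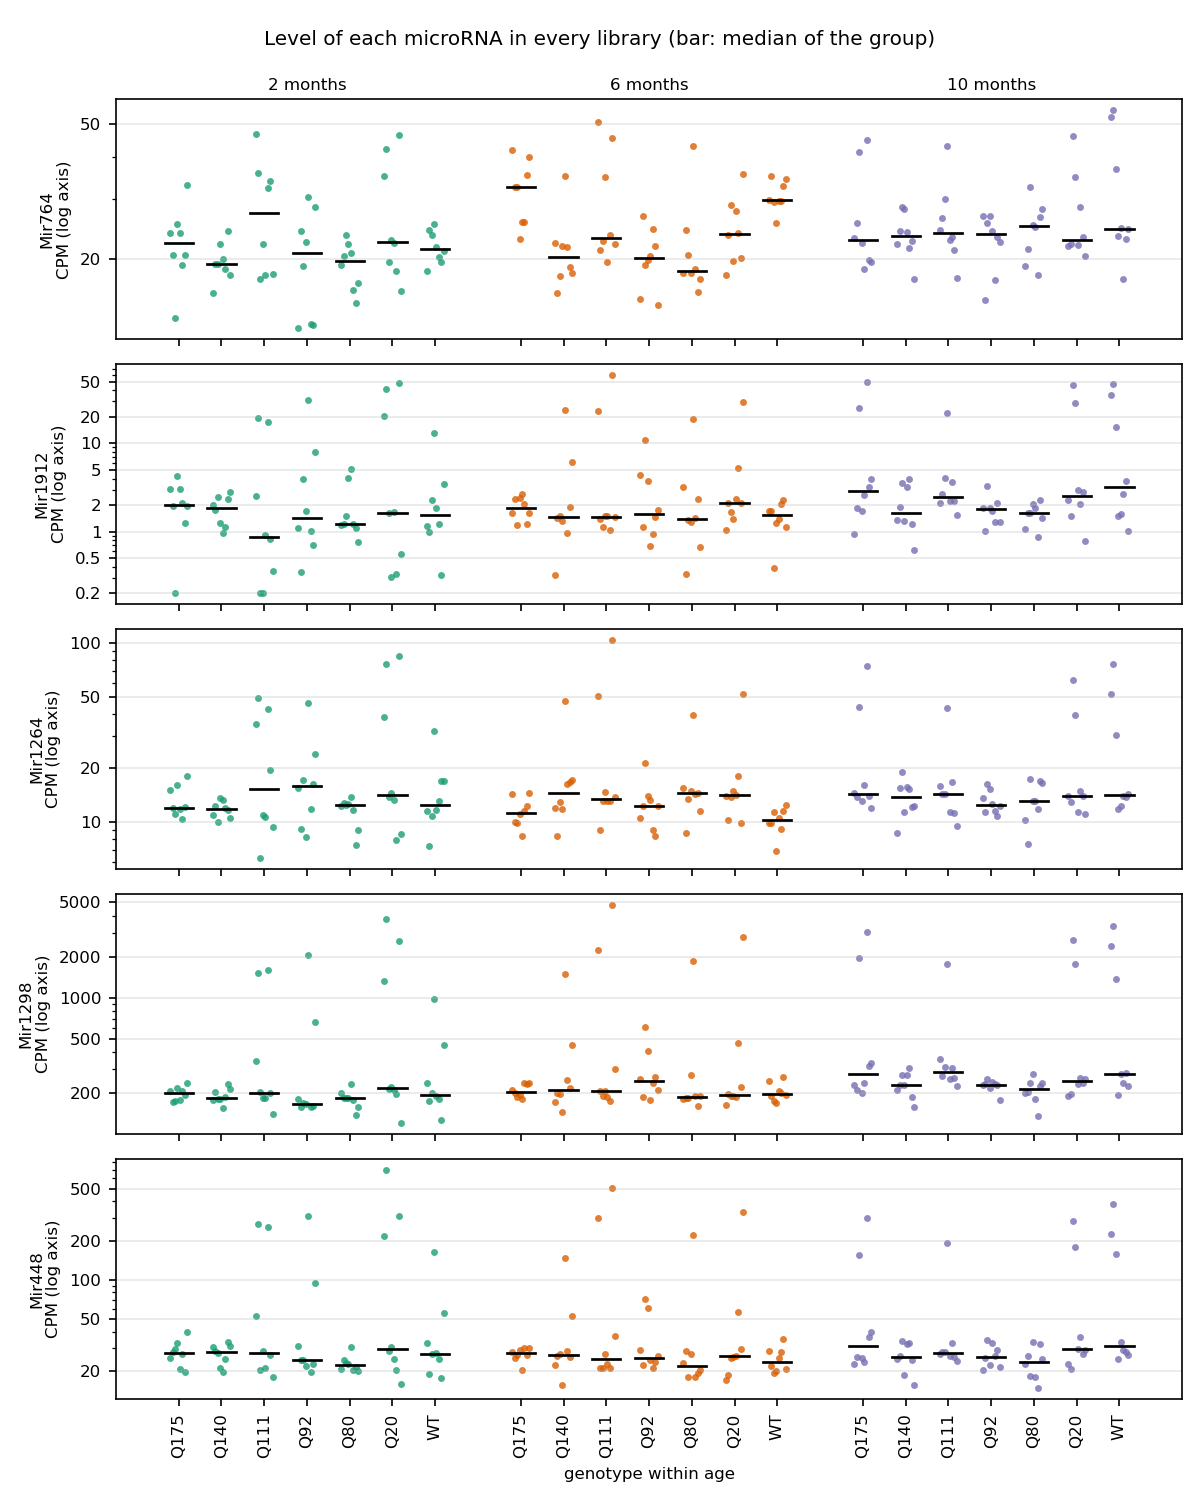
Level of each Htr2c microRNA in CPM (log axis) in every library, by genotype within each age, with a bar at the group median. Most libraries lie in a narrow band and a few libraries lie far above it in groups of every genotype, up to 4771 CPM of Mir1298 in Q111 at 6m. Values of Mir1912 under 0.2 CPM are drawn at 0.2.

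The group medians showed how little the levels of most animals moved. For Mir1298 the medians of the 21 groups ran from 168.3 CPM (Q92 at 2m) to 289 CPM (Q111 at 10m), while the means ran from 184 CPM (Q80 at 2m) to 1085 CPM (Q20 at 2m). At 2m the lowest, median and highest Mir1298 levels were 173, 202 and 238 CPM in Q175, 158, 186 and 233 in Q140, 141, 203 and 1601 in Q111, 159, 168.3 and 2055 in Q92, 138, 186 and 234 in Q80, 121, 219 and 3765 in Q20, and 129, 196 and 979 in WT. All 7 ranges overlapped, and the groups differed chiefly in their highest library. At 6m they were 182, 206 and 237 CPM in Q175, 146, 210 and 1496 in Q140, 178, 208 and 4771 in Q111, 180, 248 and 613 in Q92, 163, 189 and 1863 in Q80, 164, 196 and 2770 in Q20, and 171, 197 and 266 in WT. Q175 and WT, which share a library block at this age, were the 2 groups with the smallest ranges, and all ranges overlapped again. At 10m they were 203, 279 and 3053 CPM in Q175, 160, 232 and 305 in Q140, 229, 289 and 1766 in Q111, 178, 232 and 254 in Q92, 137, 216 and 280 in Q80, 193, 246 and 2655 in Q20, and 196, 280 and 3387 in WT. The medians of Q175 and WT, the longest and the shortest repeat, differed here by less than 1 CPM.

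Mir448, Mir1264 and Mir1912 had the same form. Group medians of Mir448 ran from 21.7 CPM (Q80 at 6m) to 31.1 CPM (WT at 10m), and its highest library was 40.0 CPM in Q175, 308 CPM in Q92, 693 CPM in Q20 and 163 CPM in WT at 2m. Medians of Mir1264 ran from 10.2 CPM (WT at 6m) to 15.8 CPM (Q92 at 2m). Those of Mir1912 ran from 0.863 CPM (Q111 at 2m) to 3.20 CPM (WT at 10m). For each of these 3, neighbouring groups in the order of the medians overlapped in range, and the order did not follow repeat length.

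Mir764 varied in another way. Its medians ran from 18.4 CPM (Q80 at 6m) to 32.5 CPM (Q175 at 6m), and its level at 6m went with the library block. The 16 libraries of Q175 and WT lay between 22.9 and 41.8 CPM (median 31.1), while the 40 of the other genotypes lay between 14.6 and 50.5 CPM (median 21.4). Within the block, the lowest, median and highest levels were 22.9, 32.5 and 41.8 CPM in Q175 and 25.5, 29.7 and 35.0 CPM in WT, and the ranges overlapped. Block and genotype cannot be told apart for Q175 and WT against the rest. Of the 14 libraries with most Mir764, 3 had a Mir1298 level below the step. They were F1 of Q111 at 2m, with 46.6 CPM of Mir764 and 345 CPM of Mir1298, and F1 and M4 of Q175 at 6m, with 41.8 and 39.9 CPM of Mir764 and 211 and 237 CPM of Mir1298.

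The study asked which microRNAs follow the length of the CAG repeat. None of the 5 was called in a CAG slope at any age (edgeR quasi-likelihood F tests, Benjamini-Hochberg adjustment over the 470 transcripts, a call being an adjusted p under 0.05). Among all transcripts tested, 0.213% were called at 2m, 1.28% at 6m, 11.1% at 10m and 14.9% when 6m and 10m were combined. Slopes are log2 changes per 100 repeats, with 7 as the repeat length of WT. At 2m all 5 slopes were below 0, with a median of -1.02 beside 2e-04 over all transcripts. Mir1298 had a slope of -1.02 (SE 0.33, adjusted p = 0.354), Mir448 of -1.04 (SE 0.36, adjusted p = 0.468) and Mir1912 of -1.20 (SE 0.44, adjusted p = 0.511). Mir1264 had -0.49 (SE 0.21, adjusted p = 0.812) and Mir764 -0.09 (SE 0.10, adjusted p = 0.988). At an unadjusted p under 0.05 there were 4 of the 5 by edgeR, 4 by DESeq2 and 0 by limma on log2(CPM + 1), beside 18 of 470 transcripts by edgeR, and neither of the other tools called a member. Without library M3 of Q20 at 2m the slopes were -0.66 for Mir1298, -0.64 for Mir1912 and -0.29 for Mir1264, and without F2 of Q20 that of Mir448 was -0.61.

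At 6m all 5 slopes were above 0, from 0.02 for Mir764 to 0.27 for Mir1912, with a median of 0.12 beside 0.02 over all transcripts. No adjusted p was under 0.876, and 0 of the 5 had an unadjusted p under 0.05 by edgeR, DESeq2 or limma. At 10m all 5 were below 0 again, with a median of -0.54 beside -0.0015 over all transcripts. Mir764 had the smallest adjusted p (slope -0.18, SE 0.09, adjusted p = 0.139), followed by Mir448 (-0.58, SE 0.30, adjusted p = 0.212), Mir1298 (-0.54, SE 0.31, adjusted p = 0.278), Mir1912 (-0.68, SE 0.42, adjusted p = 0.319) and Mir1264 (-0.27, SE 0.19, adjusted p = 0.388). An unadjusted p under 0.05 was found for 1 of the 5 by edgeR, 1 by DESeq2 and 0 by limma, beside 130 of 470 transcripts by edgeR. Without library F2 of WT at 10m the slopes were -0.26 for Mir1298, -0.32 for Mir448, -0.31 for Mir1912 and -0.11 for Mir1264. Without library M2 of Q175 at 10m, Mir448 was called at this age (slope -0.77, adjusted p = 0.0403). Combining 6m and 10m, no adjusted p was under 0.462 and 0 of the 5 had an unadjusted p under 0.05. The 5 slopes of an age are not independent observations, because the same libraries were high in all 5. For none of the 5 did the difference between the slopes at 10m and at 2m pass the test (adjusted p of at least 0.793, 2.34% of all transcripts called), nor did that between 10m and 6m (adjusted p of at least 0.602, 0.638% called). This does not show equal slopes. In males alone the 10m slope of Mir1298 was 0.43 and that of Mir448 0.33, opposite in sign to those of both sexes together. An unadjusted p under 0.05 by edgeR came for 0 of the 5 in males and 5 of the 5 in females at 10m. The fit without Q175 also gave 5 of the 5 at this age. No member was called in these fits (smallest adjusted p 0.347 in males, 0.0873 in females and 0.137 without Q175). Of the 470 transcripts they called 9, 12 and 0.

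The number of libraries above the step differed between genotypes within each age, which was not tested. At 2m, Q20 and WT held 4 of the 7 such libraries, and at 10m 5 of the 8, while at 6m they held 1 of the 5. Without the 20 libraries, a set chosen by these same levels and therefore given with no test, the slope of Mir1298 was -0.03 (SE 0.11) at 2m, 0.02 at 6m and 0.07 (SE 0.07) at 10m. Those of Mir448 were 0.05, 0.05 and 0.0023. Mir764 had 0.06, -0.01 and -0.05, and Mir1264 had 0.04, 0.06 and 0.04. Mir1912, the rarest, had 0.35 (SE 0.29), 0.06 and 0.12. Every slope but that of Mir1912 at 2m then lay between -0.05 and 0.12. The sign differed from that with all libraries in 4 of the 5 slopes at 2m, 1 at 6m and 4 at 10m.

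Each longer allele was compared with Q20 and WT together, 8 against 16 libraries. At 6m the batch term narrows the control in effect, as given below. In Q175 at 2m, Mir1298 had a log2 change of -1.80 (SE 0.67), Mir448 of -1.84, Mir1912 of -2.06, Mir1264 of -0.86 and Mir764 of -0.15, with adjusted p from 0.94 to 0.972. Without library M3 of Q20 they were -0.93, -1.06, -0.78, -0.43 and -0.0136 in the same order. At 10m the changes were -0.66 (SE 0.71) for Mir1298, -0.68 for Mir448, -0.67 for Mir1912, -0.26 for Mir1264 and -0.24 for Mir764 (adjusted p of at least 0.387). At 6m, where the batch term in effect leaves WT alone as the control of Q175, the 5 changes ran from 0.02 for Mir1298 to 0.37 for Mir1912 (adjusted p of at least 0.855). No member was called in Q175 at any age, against 0, 3.4 and 11.9% of all transcripts at 2m, 6m and 10m. DESeq2 and limma called none either. With no batch term the signs of 4 of the 5 turned at 6m and at 10m, where Mir1298 then had -0.60 and 0.64. The members with an unadjusted p under 0.05 at 2m numbered 3 by edgeR (beside 8 of 470 transcripts), 4 by DESeq2 and 0 by limma, and there were 0 at 6m and 10m by any of them. Without the 20 libraries above the step, the changes of Mir1298 in Q175 were -0.02 at 2m, 0.02 at 6m and 0.14 at 10m, and those of Mir448 were 0.08, 0.13 and 0.06.

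**Figure D2:**
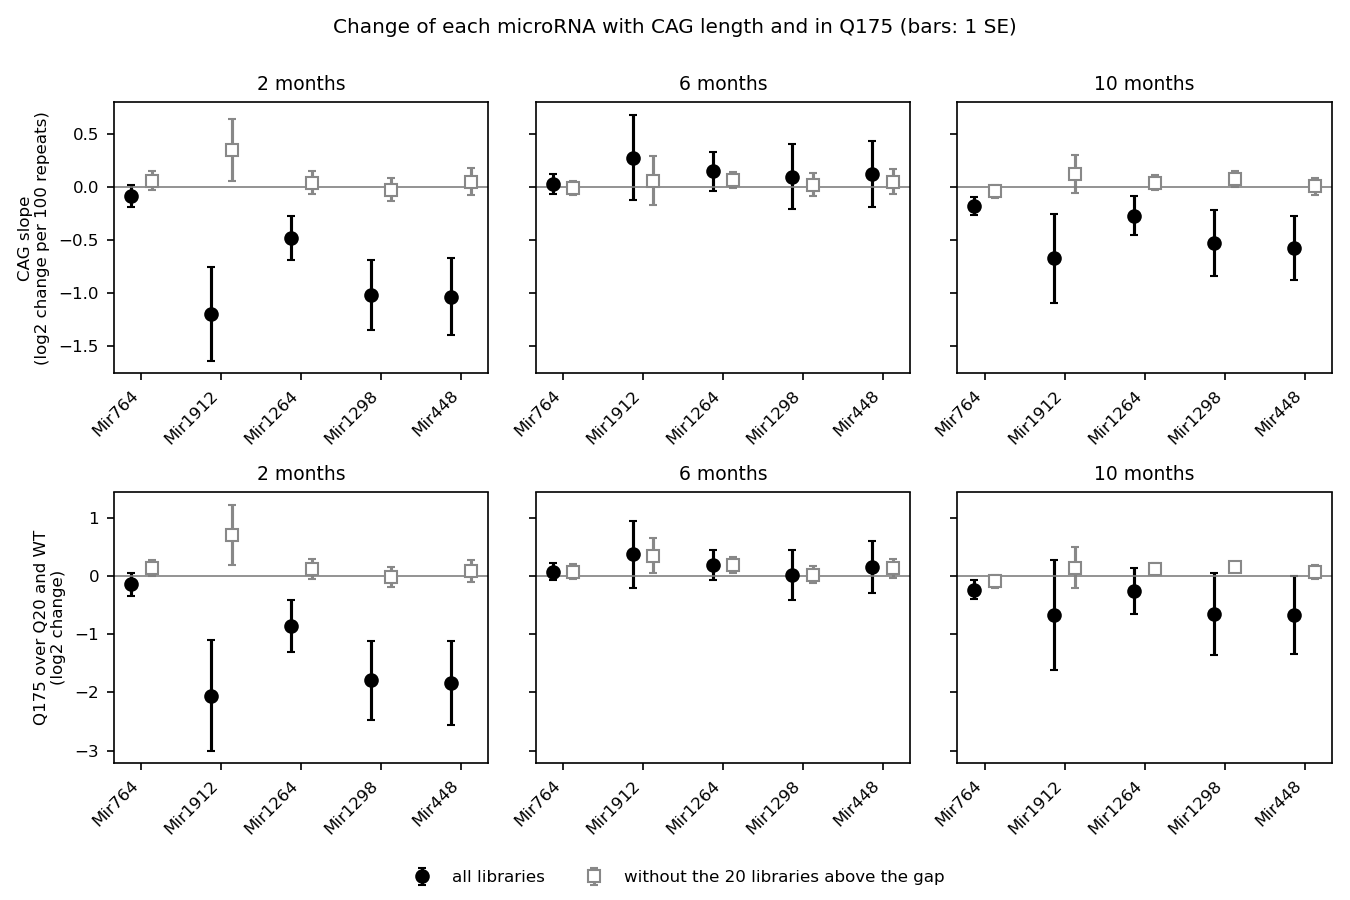
CAG slopes (upper panels, log2 change per 100 repeats) and log2 changes of Q175 over Q20 and WT (lower panels) of each Htr2c microRNA at 2m, 6m and 10m, with bars of 1 SE. Filled circles use all libraries and open squares leave out the 20 libraries above the step in Mir1298, where the 2m slope of Mir1298 is -1.02 and -0.03.

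The other alleles gave no call either. This held for Q140, Q111, Q92 and Q80 at 2m, 6m and 10m, where 0.213% of all transcripts were called for Q111 at 6m and 0% in each of the other 11 comparisons. At 6m the batch term in effect leaves Q20 alone as the control of these alleles, because WT lies in the other library block. Negative changes of all 5 came with an unadjusted p under 0.05 for all 5 in Q140 and in Q92 at 10m and for 3 of 5 in Q80 at 10m, beside 42, 14 and 40 of the 470 transcripts in these 3 comparisons. None of these 3 groups held a library above the step, and their controls held 5. In Q140 at 10m, Mir1298 had a change of -1.47 (SE 0.60, adjusted p = 0.429) and Mir448 of -1.55 (SE 0.58, adjusted p = 0.429). In Q92 at 10m the changes were -1.35 (SE 0.60, adjusted p = 1) and -1.42 (SE 0.59, adjusted p = 1), and in Q80 at 10m -1.43 (SE 0.58, adjusted p = 0.578) and -1.57 (SE 0.58, adjusted p = 0.507). The 3 comparisons share their control libraries. At 2m an unadjusted p under 0.05 came for 2 of 5 in Q140, 2 in Q80 and 0 in Q111 and Q92, and at 6m for 1 in Q92 and 0 in Q140, Q111 and Q80. In Q111 at 6m, the group of the highest library, the change of Mir1298 was 1.13 (SE 0.72, adjusted p = 0.743).

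The sexes were compared within each age, with CAG length as a number and batch in the fit. No member was called at any age (0.426, 0 and 0% of all transcripts were called at 2m, 6m and 10m), and DESeq2 and limma called none. At 6m the change of females over males was -0.90 (SE 0.34, adjusted p = 0.424) for Mir1298, and 4 of the 5 had an unadjusted p under 0.05, beside 32 of the 470 transcripts. At 10m it was 0.87 (SE 0.37, adjusted p = 0.313) for Mir1298 and 0.29 (SE 0.10, adjusted p = 0.169) for Mir764, and again 4 of the 5 had an unadjusted p under 0.05, beside 57 of the 470. At 2m there were 0. DESeq2 gave the same counts of unadjusted p, while limma gave 0 at 2m, 0 at 6m and 1 at 10m. The directions at 6m and 10m were opposite, as were the numbers of libraries above the step in each sex. Whether the sexes differ between these ages was not tested.

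Across ages, only Mir764 was called with all libraries and TMM scaling. It was higher at 6m than at 2m by 0.18 on the log2 scale (SE 0.08, adjusted p = 0.0320) and higher at 10m than at 2m by 0.19 (SE 0.08, adjusted p = 0.0281). Median levels were 20.6 CPM at 2m, 23.5 at 6m and 23.7 at 10m, with ranges of 12.5 to 46.6, 14.6 to 50.5 and 15.1 to 54.7 CPM that overlapped almost fully. The call is 1 of 5 members in each of these comparisons, beside 64.7% of all transcripts called for 6m over 2m and 45.1% for 10m over 2m, so it was no sign of a change particular to Mir764. No member was called for 10m over 6m, where 67% of all transcripts were (0 of 5 with an unadjusted p under 0.05 by edgeR and by limma). Each batch as used here lies within 1 age, so age and batch cannot be told apart. With RLE scaling the change of Mir764 at 6m over 2m was 0.15 (adjusted p = 0.0794). Without WT and Q175, the groups of the separate library block at 6m, its changes over 2m were 0.04 at 6m (adjusted p = 0.726) and 0.12 at 10m (adjusted p = 0.296), and Mir448 was then called for 10m over 2m (-0.72, adjusted p = 0.0492). Mir1298 had changes of 0.18 at 6m and 0.46 at 10m over 2m (adjusted p = 0.530 and 0.171) and was not called.

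Covariation between libraries was the strongest feature of the group. It was measured on residuals of log2(CPM + 1) from group, sex and batch over all libraries, with 100000 permutations for each of 10 pairs and Benjamini-Hochberg adjustment over the 10. Each of the 10 pairs had a permutation p and an adjusted p of 1e-05, the smallest the permutations can give, for Pearson's r and for Spearman's rho. Mir1298 and Mir448, which lie 93207 nucleotides apart in different introns, had r = 0.99 (rho = 0.96). Mir1912 had r = 0.95 with Mir1298 (rho = 0.86), 0.94 with Mir448 (rho = 0.85) and 0.90 with Mir1264 (rho = 0.76), its near neighbour. Mir1264 had r = 0.92 with Mir1298 (rho = 0.82) and 0.92 with Mir448 (rho = 0.80). Mir764 was the least like the others, with r of 0.72 to 0.77 and rho of 0.59 to 0.66. Closeness on the chromosome thus did not order these r values, since Mir764 lies 7074 nucleotides from Mir1912 and had with it the lowest r. Mir764 had the smallest residual SD (0.34) and Mir1912 a median of 6 counts per library. The part of counting error in this r was not tested. Without the 2 libraries farthest from the median of the first member of each pair, r was 0.69 to 0.98. At 6m alone, Mir764 with Mir1912 had r = 0.57 (permutation p = 2e-05) but rho = 0.24 (permutation p = 0.073), so that its rank relation did not pass.

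Residuals from the fit to all libraries were also compared on each side of the step. Among the 148 libraries below the step, r was 0.95 for Mir1298 with Mir448 and 0.69 to 0.83 for the other pairs without Mir764, and 0.43 to 0.57 for the pairs with Mir764 (each permutation p = 1e-05). Among the 20 above it, r was 0.95 for Mir1298 with Mir448, 0.85 to 0.94 for the other pairs without Mir764, and 0.55 to 0.66 for those with Mir764 (permutation p from 0.00138 to 0.0122). Values within either side are a description, because the step was set on the Mir1298 levels themselves. A high library also raises the fitted level of its group, which lowers the residuals of that group's other libraries in every member. The values below the step therefore cannot tell whether the relation held apart from the high libraries. Within each of the 8 batches, r of Mir1298 with Mir448 on the same residuals was between 0.86 and 0.99. It was lowest, at 0.86, in the 6m block of Q175 and WT. The other pairs varied more, and their lowest values came from the 6m block of Q175 and WT, which held no library above the step, except for Mir764 with Mir1264 (0.28 in L2 at 2m, 6 libraries). In that block of 16 libraries r was -0.31 for Mir1912 with Mir1264 and -0.22 for Mir764 with Mir1912, 0.32 for Mir1912 with Mir1298 and 0.50 for Mir1264 with Mir1298. The relation of Mir1912 to its 2 nearest neighbours therefore did not hold within every batch, and Mir1912 had few counts in these libraries.

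**Figure D3:**
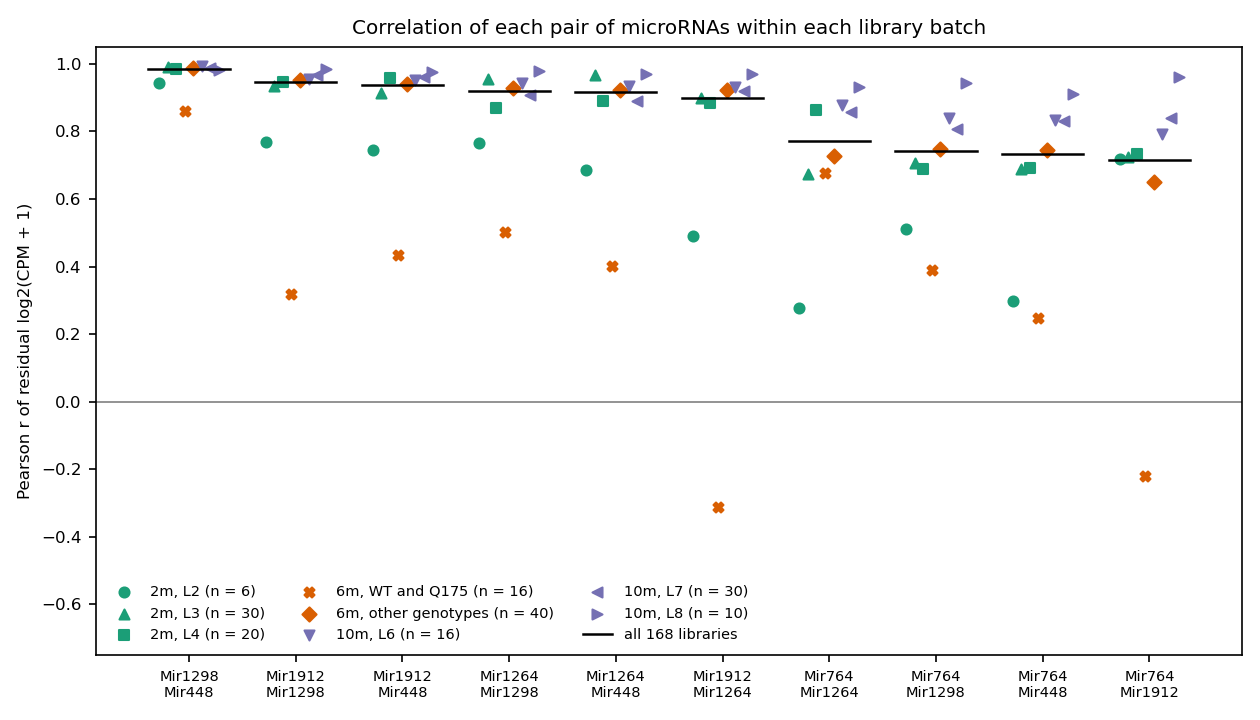
Pearson r of residual log2(CPM + 1) for each of the 10 pairs of Htr2c microRNAs within each of 8 library batches (symbols, coloured by age) and over all libraries together (bars). Mir1298 and Mir448 lie at 0.86 or above in every batch, while Mir1912 with Mir1264 and with Mir764 lies below 0 in the 6m block of WT and Q175.

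The members also differed in how far they moved with Mir1298. A line through the CPM of all libraries gave 12.2 CPM of Mir448, 2.00 CPM of Mir1264, 1.39 CPM of Mir1912 and 0.799 CPM of Mir764 for each 100 CPM of Mir1298. The level at which the line met 0 CPM of Mir1298 was 0.0916 CPM for Mir448 and -1.13 CPM for Mir1912, but 8.46 CPM for Mir1264 and 21.1 CPM for Mir764. The last 2 were 64.7% and 93.2% of the median levels. Without the 2 libraries with most Mir1298 it was 2.27 CPM for Mir448, -1.44 CPM for Mir1912, 8.32 CPM for Mir1264 and 20.7 CPM for Mir764. These levels were extrapolated, since no library had less than 121 CPM of Mir1298. Single libraries went down to 12.5 CPM of Mir764 and 6.27 CPM of Mir1264, below the levels of the lines. Among the 148 libraries below the step, the residuals of Mir764 and Mir1264 had r = 0.48 and r = 0.75 with those of Mir1298. These residuals came from the fit to all libraries and carry the limit given above. In the 6m block of Q175 and WT, which held no library above the step, r was 0.39 and 0.50. Being extrapolated, the lines cannot tell how much of the Mir764 or Mir1264 level in a typical library moved with Mir1298. As a percentage of Mir1298, Mir448 had a median of 12.0% and stayed between 7.52 and 18.4% in every library. Mir764 had a median of 10.2% but was at 0.951% in the library with the most Mir1298 and at 13.2% in the library with the least.

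**Figure D4:**
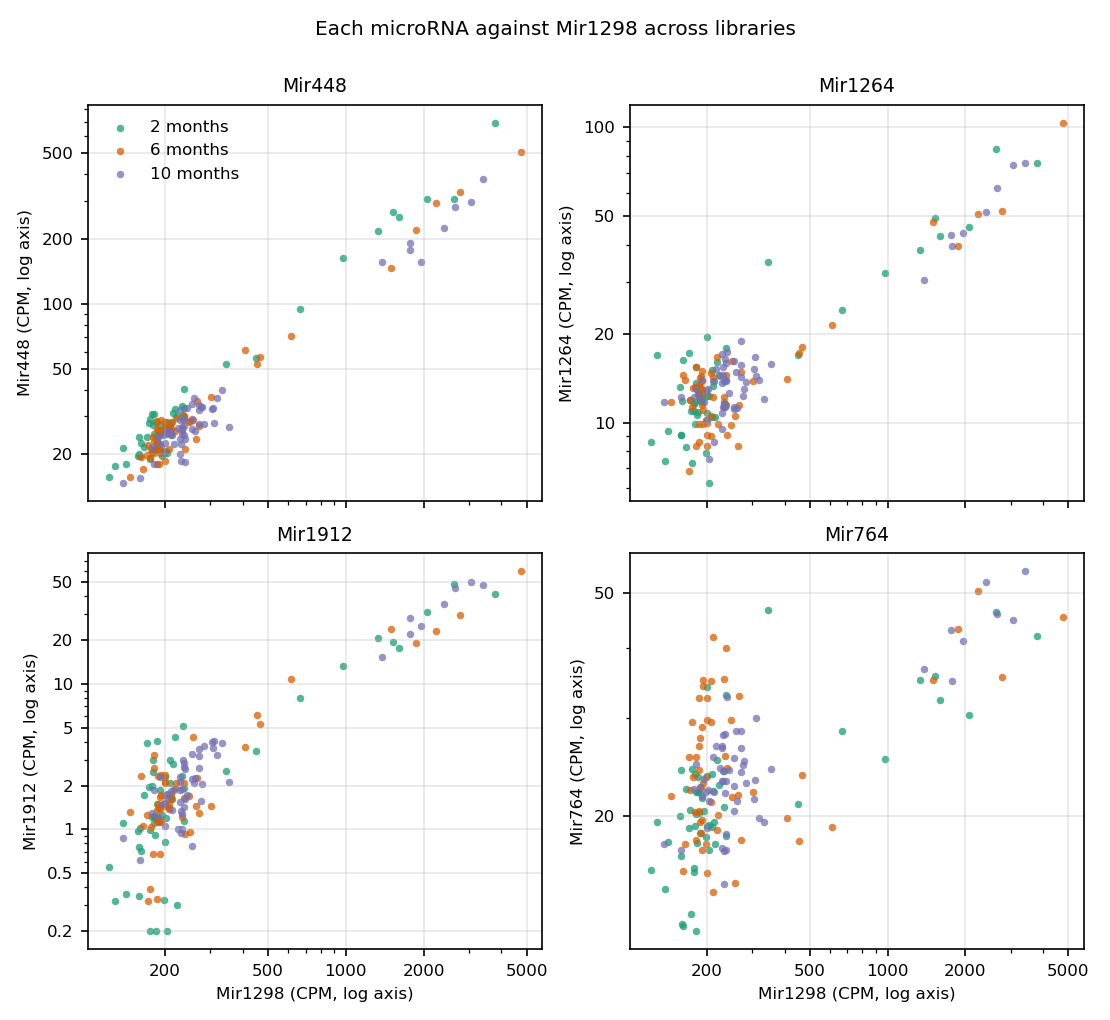
CPM of Mir448, Mir1264, Mir1912 and Mir764 against CPM of Mir1298 in every library (log axes, coloured by age). Mir448 follows Mir1298 over the whole range, Mir1264 and Mir764 flatten at low Mir1298 levels, and Mir764 spans no more than 12.5 to 54.7 CPM. Values of Mir1912 under 0.2 CPM are drawn at 0.2.

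Beyond the 5 members, 2 annotated microRNA genes lie inside Htr2c. Gm22650 (chrX:146999405-146999509, ENSMUST00000175138) lies before Mir764 and ran from 4.03 to 30.3 CPM around a median of 11.4 CPM. Its r was 0.78 with Mir764, 0.72 with Mir1264, 0.70 with Mir1298, 0.69 with Mir1912 and 0.68 with Mir448 over all libraries. It was thus closest to its neighbour Mir764. Gm24627, 41936 nucleotides after Mir1298, was listed at 0 in every library.

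The mean residual profile of the 5 members was then set against the 465 other tested transcripts. These r values are a description, with no p, and all transcripts of a library share its depth and its dissected tissue. The median r was -0.03 and the 95th percentile 0.308, and 9 transcripts had r above 0.5. The closest was Mir204 (r = 0.918), which lies on chromosome 19 in an intron of the ion channel gene Trpm3 and is abundant in the choroid plexus. Then came Gm22650 (0.760), Mir34c (0.729) and Mir34b (0.707), a pair known from multiciliated cells, the X-linked neighbours Mir92-2 (0.698) and Mir363 (0.666), and the mesenchymal Mir199a-1 (0.672). The last 3 of the 10 closest were Mir208b (0.517), from the cardiac myosin gene Myh7, Mir375 (0.507), known from pancreatic islets, and Mir23a (0.464). Mir204 ran from 4779 to 35685 CPM around a median of 6580 CPM. It stood at 35685, 32506 and 28058 CPM in the 3 highest libraries of Mir1298 named above, and its r was 0.94 with Mir1298 and 0.65 with Mir764.

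Of the 7 listed markers of the choroid plexus and of ciliated cells of the ventricle wall outside Htr2c, 5 passed the low-count filter, and these did not all move with the group. Mir204, Mir34c and Mir34b had r of 0.71 or more. Mir211, a relative of Mir204 in the Trpm1 gene, had r = 0.256 at 1.24 to 9.76 CPM, and Mir449a, a marker of multiciliated cells, had r = 0.0072 at 0.787 to 9.51 CPM. Mir449b was at 0 in 136 libraries and Mir449c in 18. The summed level of the list was set by Mir204 and ran from 7302 to 7972 CPM in Q175, 5547 to 20331 in Q111, 7016 to 35884 in Q20 and 6621 to 13984 in WT at 2m. At 6m it ran from 6175 to 12360 CPM in Q175, 6981 to 39928 in Q111, 7148 to 25377 in Q20 and 6690 to 9037 in WT, and at 10m from 6293 to 28537 CPM in Q175, 6502 to 18955 in Q111, 6972 to 29344 in Q20 and 7110 to 32388 in WT. In the other 3 alleles at 10m, which held no library above the step, it stayed between 5858 and 8900 CPM. The 12 groups with such a library reached 13984 CPM or more, and the 9 others 12573 CPM or less. Q175 at 6m reached 12360 CPM while its Mir1298 level stayed at 237 CPM or below. The part of the amount of choroid plexus tissue in these levels was not tested.

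**Figure D5:**
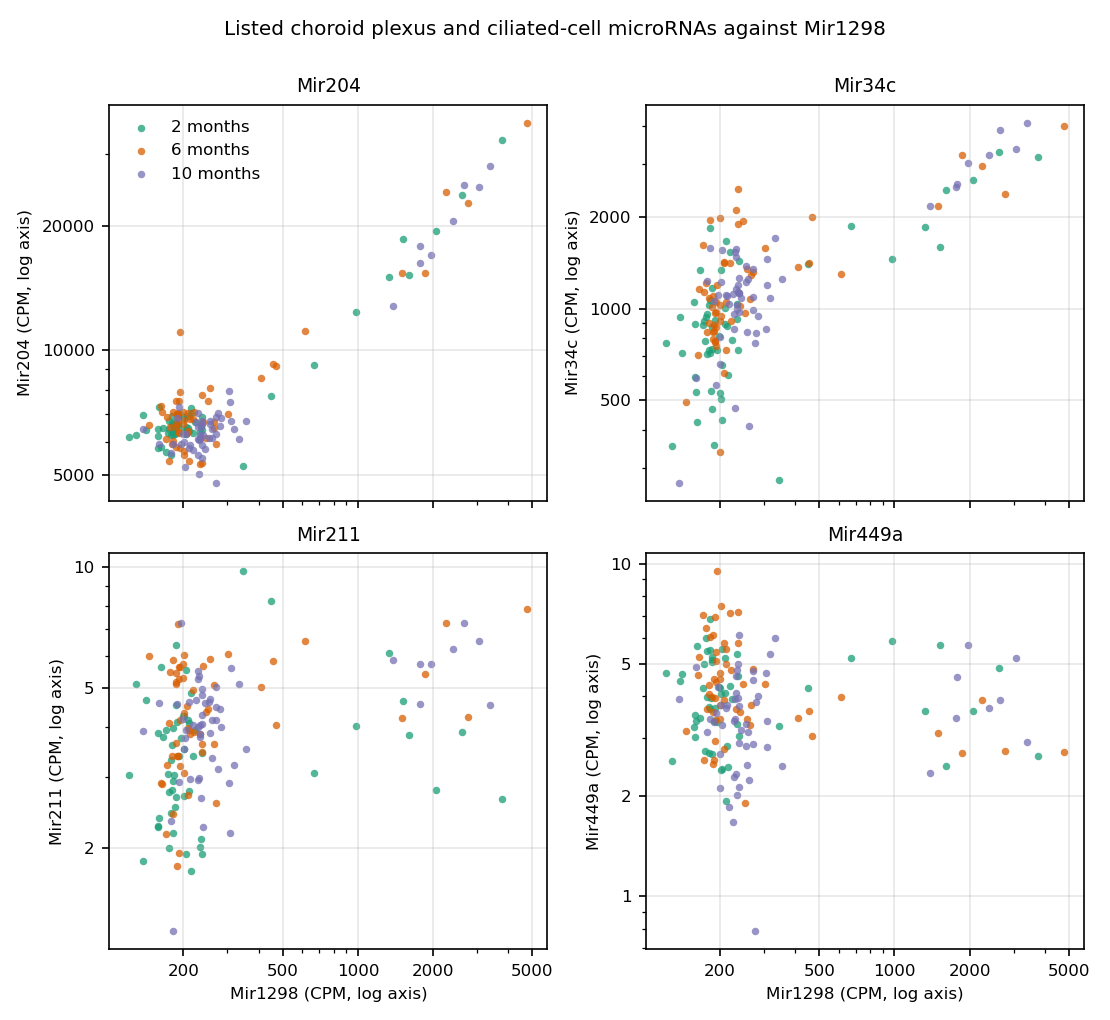
CPM of Mir204, Mir34c, Mir211 and Mir449a against CPM of Mir1298 in every library (log axes, coloured by age). Mir204 climbs with Mir1298 to 35685 CPM and Mir34c to 4084 CPM, while Mir211 and Mir449a stay under 10 CPM with no such climb.

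With CAG length, none of the 5 tested markers of this list was called at 2m (median slope -0.30) or 6m (median 0.08). At 10m 1 was called higher and 0 lower (median -0.10), and when 6m and 10m were combined again 1 higher and 0 lower. That marker was Mir449a (slope 0.38 at 10m, SE 0.11, adjusted p = 0.0162), the one least like the Htr2c microRNAs. Mir204 had slopes of -0.38 at 2m (adjusted p = 0.511), 0.09 at 6m and -0.34 at 10m (adjusted p = 0.130), the same signs as those of Mir1298. Of the lists for other cells, the 5 epithelial microRNAs of the Mir200 family had r from -0.03 to 0.13 with the group, and the 5 neuronal ones from -0.23 to 0.13. The mesenchymal list was mixed, with Mir199a-1 at 0.672 and Mir214 at 0.461 but Mir199a-2 and Mir199b at 0.115 and 0.110. The vessel list had r from 0.251 to 0.367, the oligodendrocyte list from -0.191 to 0.138, the 2 tested leukocyte microRNAs 0.147 and 0.371, the 3 tested red blood cell ones -0.0609 to 0.257, and the sensory and pineal list 0.0247 to 0.0800. In the slopes at 2m, 6m and 10m these lists gave 1 call among epithelial microRNAs at 2m, Mir141 (slope -1.83, adjusted p = 0.00485), and 3 among neuronal ones at 10m, Mir124a-1, Mir128-1 and Mir128-2, with slopes of -0.11, -0.07 and -0.07.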

How the data were processed

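Per the study's methods, short RNA from 1 animal per library was extracted with the miRNeasy kit, read from one end with strand kept, aligned by STAR to mm10 and counted by HTSeq, and the submitters' processing notes name CASAVA 1.8.2. The values the authors deposited as counts are partly fractional (52.54% of nonzero values are whole within 0.001), so they were treated as estimated counts and rounded to whole numbers. All 840 values of the members were whole. The authors also deposited RPKM values, which were left out because they were scaled differently in 16 libraries. Transcript identifiers were matched to GENCODE M21 (1228 of 1626).

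The tests used edgeR 4.0.16 (R 4.3.3) with TMM scaling, filterByExpr (minimum count 10, 470 transcripts kept), quasi-likelihood F tests, and Benjamini-Hochberg adjustment over 470 transcripts. Sex and batch were covariates, except in the age comparisons, which had genotype and sex but no batch term. Batch was the L code of the library name at 2m and 10m, and at 6m one of 2 library number blocks. The meaning of these codes is not stated. SEs are approximate. DESeq2 1.42.0 and limma 3.58.1 (pseudocount 1) were alternatives. Correlations used scipy 1.17.1. Tests were tried on simulated counts. Groups came from the sample labels. Members, marker lists (choroid plexus and ciliated cells, epithelium, neurons, oligodendrocytes, vessels, leukocytes, red blood cells, mesenchyme and meninges, sensory and pineal) and tests were chosen with earlier results of these data known. Named were the 5 members, marker genes called in a slope and the 10 transcripts most correlated with the members' mean profile. Choroid markers and Htr2c neighbours beyond these were named after their values were seen. Alternatives were other scaling, filters, tools, covariates, controls and left-out libraries.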

Additional observations from a re-analysis of the deposited data

Results flagged for a closer look

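For each member in each group of 8 libraries, the library farthest from the rest was examined by Dixon's gap ratio at the 95% critical value for 8 samples. For normally distributed values, chance alone would mark about 1 in 20 of the 105 tests, or 5.25, and 34 were marked. The ratio was taken on CPM, which is skewed to high values here, so 5.25 is not the number to be awaited. Of these, 33 were on the high side, and the 34 came from only 11 libraries in 11 groups, 1 library in each. The tests of the 5 members are not independent of each other, since the same libraries were high in several.

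Library M1 of Q140 at 6m stood apart in all 5 microRNAs, with 35.0 CPM of Mir764, 23.7 of Mir1912, 47.7 of Mir1264, 1496 of Mir1298 and 146 of Mir448. So did library M1 of Q80 at 6m, with 43.1, 19.0, 39.7, 1863 and 221 CPM in the same order. The next library of their groups had 456 and 271 CPM of Mir1298.

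Libraries apart in the 4 microRNAs other than Mir764 were M1 of Q92 at 2m (31.2 CPM of Mir1912, 45.9 of Mir1264, 2055 of Mir1298 and 308 of Mir448), F4 of WT at 2m (13.3, 32.1, 979 and 163 CPM), M4 of Q20 at 6m (29.7, 51.9, 2770 and 332 CPM) and F4 of Q111 at 10m (22.0, 43.2, 1766 and 191 CPM). Library M3 of Q111 at 6m was apart in Mir1912 (59.3 CPM), Mir1264 (104 CPM) and Mir1298 (4771 CPM), and F3 of Q92 at 6m in Mir1912 (10.8 CPM) and Mir1264 (21.4 CPM). Library F2 of Q20 at 2m was apart in Mir448 alone (693 CPM, with the next library, M3, at 308 CPM). In Q80 at 2m, whose levels are close together, M2 was apart at 30.4 CPM of Mir448. The 1 library on the low side was M4 of Q92 at 10m, with 178 CPM of Mir1298 where the other 7 lay between 218 and 254 CPM.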

How the results depend on the processing

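Of the values recomputed under settings other than leaving out 1 library, 470 of 526 kept their direction and, where tested, their side of the threshold. Of the rest, 50 changed sign, 3 lost a call, 1 gained one and 2 counts moved. The correlations between members and the fits without the 20 libraries above the step had no threshold and count by direction alone. The cause was not tested in any case. With pseudocounts of 0.25 and 4, with no batch term and on raw totals, none of the correlations between members changed its direction. No member was called in any slope or in Q175 under any of these settings. Males alone gave slopes of 0.0134 for Mir764 at 2m, of -0.0266 for Mir764, -0.0242 for Mir1298 and -0.13 for Mir448 at 6m, and of 0.85 for Mir1912, 0.25 for Mir1264, 0.43 for Mir1298 and 0.33 for Mir448 at 10m. The 6m slope of Mir764 was -7e-04 by limma, -0.034 without Q175, -0.0455 without WT and -0.0272 without their library block. In Q175, Mir764 at 2m was 0.0251 with WT alone as the control, and Mir1298 at 6m was -0.0114 with no low-count filter. With no batch term, the changes in Q175 at 6m were -0.54 for Mir1912, -0.28 for Mir1264, -0.60 for Mir1298 and -0.47 for Mir448, and at 10m 0.73, 0.23, 0.64 and 0.35.

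For ages, RLE scaling lowered the 6m change of Mir764 over 2m to 0.15 (adjusted p = 0.0794) and the number of members called to 0, and gave 0.0019 for Mir448 at 10m over 2m (0.0094 by limma). Without WT and Q175, no member was called for 6m over 2m, where Mir764 had 0.04 (adjusted p = 0.726) and Mir1264 0.0059. For 10m over 2m, Mir764 then had 0.12 (adjusted p = 0.296), Mir1912 -0.43, Mir1264 -0.22 and Mir1298 -0.27, while Mir448 became the 1 member called (-0.72, adjusted p = 0.0492), and for 10m over 6m Mir1912 had -0.59, Mir1264 -0.23, Mir1298 -0.55 and Mir448 -0.66.

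Chosen after seeing the data, the fits without the 20 libraries with most Mir1298 gave slopes of opposite sign at 2m for Mir764 (0.0576), Mir1912 (0.35), Mir1264 (0.0377) and Mir448 (0.0459), at 6m for Mir764 (-0.0115), and at 10m for Mir1912 (0.12), Mir1264 (0.0381), Mir1298 (0.0726) and Mir448 (0.0023). In Q175 they did so at 2m for Mir764 (0.13), Mir1912 (0.71), Mir1264 (0.12) and Mir448 (0.0818), and at 10m for Mir1912 (0.14), Mir1264 (0.11), Mir1298 (0.14) and Mir448 (0.059).

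Leaving out 1 library in turn kept direction and call in 1424 of 1440 values. The number of members called in the 10m slope was 0 to 1, and the slope of Mir448 there ran from -0.77 to -0.32. At 6m the slopes ran from -0.0698 to 0.35 for Mir1298, -0.0577 to 0.39 for Mir448 and -0.0068 to 0.0489 for Mir764, and the changes in Q175 from -0.0065 to 0.13 for Mir764 and -0.0598 to 0.15 for Mir1298. At 2m the smallest adjusted p of a slope was 0.0884 (without Q111 F2), and 0.0808 without WT.

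The replicate numbers of the labels did not pair the libraries. Libraries with the same number had mean residual correlations of 0.0078, -0.0028 and 0.0090 at 2m, 6m and 10m. Only 7, 4 and 10 of 56 libraries were closest to their own number. With the replicate number as a block no member was called, the change of Mir1298 in Q175 at 6m was -0.0098, and the transcripts called numbered 0, 3 and 81 in the slopes at 2m, 6m and 10m, against 1, 6 and 52 without it. Over all transcripts, other counts that moved by over 1.5 times were those of the 6m slope (11 with RLE scaling, 13 by DESeq2, 2 with no batch term, 1 with no low-count filter, in females or in males, and 0 without Q175, WT or their block), of the 2m slope (0 by limma, without Q175, without WT, in females or in males), of the 10m slope (12 in females, 9 in males, 0 without Q175), of females over males at 10m (5 by DESeq2, against 0), of Q175 at 6m (138 with no batch term, 7 with no low-count filter) against 16, and of Q175 at 10m (34 with no low-count filter, 36 with WT alone as the control) against 56. Depth limits Mir1912 most.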
